A study of Mus musculus with 8 samples.

Results

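The results concern 8 genes that encode the MLL3/4 complex, the histone methyltransferase complex in which the demethylase UTX resides: Mll2, Mll3, Paxip1, Ncoa6, Wdr5, Rbbp5, Ash2l and Dpy30. They were chosen by name, as each locus whose symbol is, or includes after merging with a neighbour, that of a partner of UTX, and all 8 were found once in each of the 3 expression tables, out of 23158 gene symbols. The data came from cultured mouse myoblasts, precursors of muscle fibres derived from the satellite cells that act as stem cells of muscle, and the series addressed what UTX, encoded by the X-linked gene Kdm6a, contributes to expression during differentiation. The 8 libraries formed 6 groups, and 3 comparisons were made. Female KO cells (1 library) carried a floxed UTX allele with a tamoxifen-dependent Cre driven by Pax7 and a Cre-dependent TdTomato reporter at Rosa26. Female WT cells (1 library) carried the same Cre and reporter without the floxed allele. Male KO and male WT cells (1 library each) were labelled as knockout and wild type of the same gene, with no genotype field. Female KI cells (2 libraries) were set against female Ctrl-KI cells (2 libraries), and the labels do not name the allele that KI carried. All groups came from mice of a mixed B6/129 background. According to the protocols shared by all samples, reporter-positive cells were sorted, were grown with 20% serum, 2.5 ng/mL FGF and 2.5 µM 4-hydroxytamoxifen in every group, controls included, and were then differentiated for 24 h. Ages are not stated. The Pax7-driven Cre acts in satellite cells and their descendants, so other cells in a culture would keep the allele.

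As background, the MLL3/4 complex places methyl groups on lysine 4 of histone H3 (H3K4), mainly the monomethyl mark of enhancers. UTX removes methyl groups from lysine 27 of the same histone, a mark of Polycomb repression. The catalytic subunit is 1 of a pair of large paralogous methyltransferases, MLL3 and MLL4. Around it sit 4 core subunits, WDR5, RBBP5, ASH2L and DPY30, which are shared with every complex of the MLL and SET1 family and are needed for full methyltransferase activity. PTIP (encoded by Paxip1), NCOA6, PA1 and UTX are found only in the MLL3/4 form. In muscle cells, PAX7 is known to bring a WDR5-ASH2L methyltransferase complex to Myf5, and MEF2D is known to recruit ASH2L to muscle promoters. Naming of these enzymes is a common source of error. In the mouse symbols of these files Mll2 lies on chromosome 15 and is the gene now called Kmt2d, which encodes the protein known as MLL4. The gene now called Kmt2b, which also carries Mll2 as an older synonym in RefSeq, lies on chromosome 7 and is listed here as Wbp7. Mll3 is the gene now called Kmt2c.

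Expression was given as FPKM, a fragment count normalised for both the length of the transcript and the size of the library, with a lower and an upper confidence bound. The female and male KO tables held 1 library per column and the KI table held 1 pooled column per group, so within a table no group has replicate values and the deposited bounds are the only error. Whether libraries stand for separate animals is not stated. Read depth was not given. The deposited interval spanned 106% to 144% of the FPKM for the 8 genes in the female columns, 142% to 194% in the male columns and 37.8% to 76.2% in the KI columns, so the KI table was the most precise. Differences are given as the log2 ratio of (FPKM + 1), KO or KI over its control in the same table. The added 1 FPKM understates changes of low genes. Of loci with a gene symbol, those with at least 1 FPKM in 1 column were kept, 12344 for females, 11440 for males and 11084 for KI, and all 8 genes passed in every table. The columns of different tables were estimated separately, and no level was tested across them. In the male and KI tables, loci with no symbol held 72.8% to 86.1% of the summed FPKM in the male columns and 57.1% to 77.6% in the KI columns.

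The targeted gene itself was checked first. Kdm6a was 16.9 FPKM in female KO cells, against 20.8 in female WT cells (bounds 7.95 to 25.8 and 9.71 to 31.9), a log2 ratio of -0.29. It was 2.08 FPKM in male KO cells, against 7.87 in male WT cells (bounds 0.0854 to 4.07 and 1.57 to 14.2), a log2 ratio of -1.53. Kdm6a was 13.2 FPKM in KI cells, against 12.8 in Ctrl-KI cells. Each value covers all exons together, and the floxed exons are not named in the labels, so the female value is a weak check of the label. Kdm6b, the other H3K27 demethylase of this family, had 56.8 FPKM in female KO cells, against 48.6 in female WT cells. Its locus is merged with Tmem88 in the other tables, with 19.4 FPKM in male KO cells, against 29.8 in male WT cells, and 34.6 in KI cells, against 30.2 in Ctrl-KI cells. Uty, the Y-linked paralogue of UTX, had 5.85 FPKM in male KO cells, against 8.43 in male WT cells.

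The transcript of the reporter locus also differed between the columns. Gt(ROSA)26Sor was 62.7 FPKM in female KO cells, against 3.01 in female WT cells, and 56.9 FPKM in male KO cells, against 1.92 in male WT cells. In the KI table it was 12.2 FPKM in KI cells, against 20.2 in Ctrl-KI cells. The labels give female WT cells the same reporter allele as KO cells, and one sort for all samples. These levels differ between KO and WT where those labels do not, and the state of the reporter in each library was not tested, so the match of the WT libraries to their KO libraries rests on the labels.

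All 8 complex genes were expressed in every column, and their order differed between the columns except at its lower end. Mll3 was the lowest of the 8 in 6 of 6 columns, at 2.93 to 7.40 FPKM, and Paxip1 was the next lowest in 6 of 6. In female cells Wdr5 was the highest, at 25.6 FPKM in KO and 26.5 in WT cells. In the other columns Ash2l was the highest, at 37.6 FPKM in male KO, 37.5 in male WT, 30.3 in KI and 35.7 in Ctrl-KI cells. Its locus overlaps Star in males and 6 other loci in the KI table. Its rank there, and the spans that use its level, therefore cannot be assigned to Ash2l alone. The highest gene stood 3.51-fold above the lowest in female KO and 3.59-fold in female WT cells, 12.8-fold in male KO and 8.10-fold in male WT cells, and 6.47-fold in KI and 7.58-fold in Ctrl-KI cells. FPKM is per length, so these levels can be set side by side within a column. In the KO tables the bounds of every pair of neighbours in the order overlapped, and 1 to 2 of 28 gene pairs per column had bounds apart. With the narrower KI bounds 20 of 28 pairs were apart in KI and 19 in Ctrl-KI cells. There Ash2l, Wdr5 and Dpy30 formed a higher group with overlapping neighbours, together with a merged locus of Mll2 and its neighbour Prkag1, whose level is not that of Mll2 alone. Ncoa6 and Rbbp5 followed, and Paxip1 and Mll3 took the lowest places. Among all kept genes the members lay between the middle and the upper ranks for the core subunits and lower for Mll3. Wdr5, for example, exceeded 73.5% of genes in female KO and 72.3% in female WT cells, while Mll3 exceeded 17.1% in male KO and 29.0% in male WT cells.

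**Figure D1:**
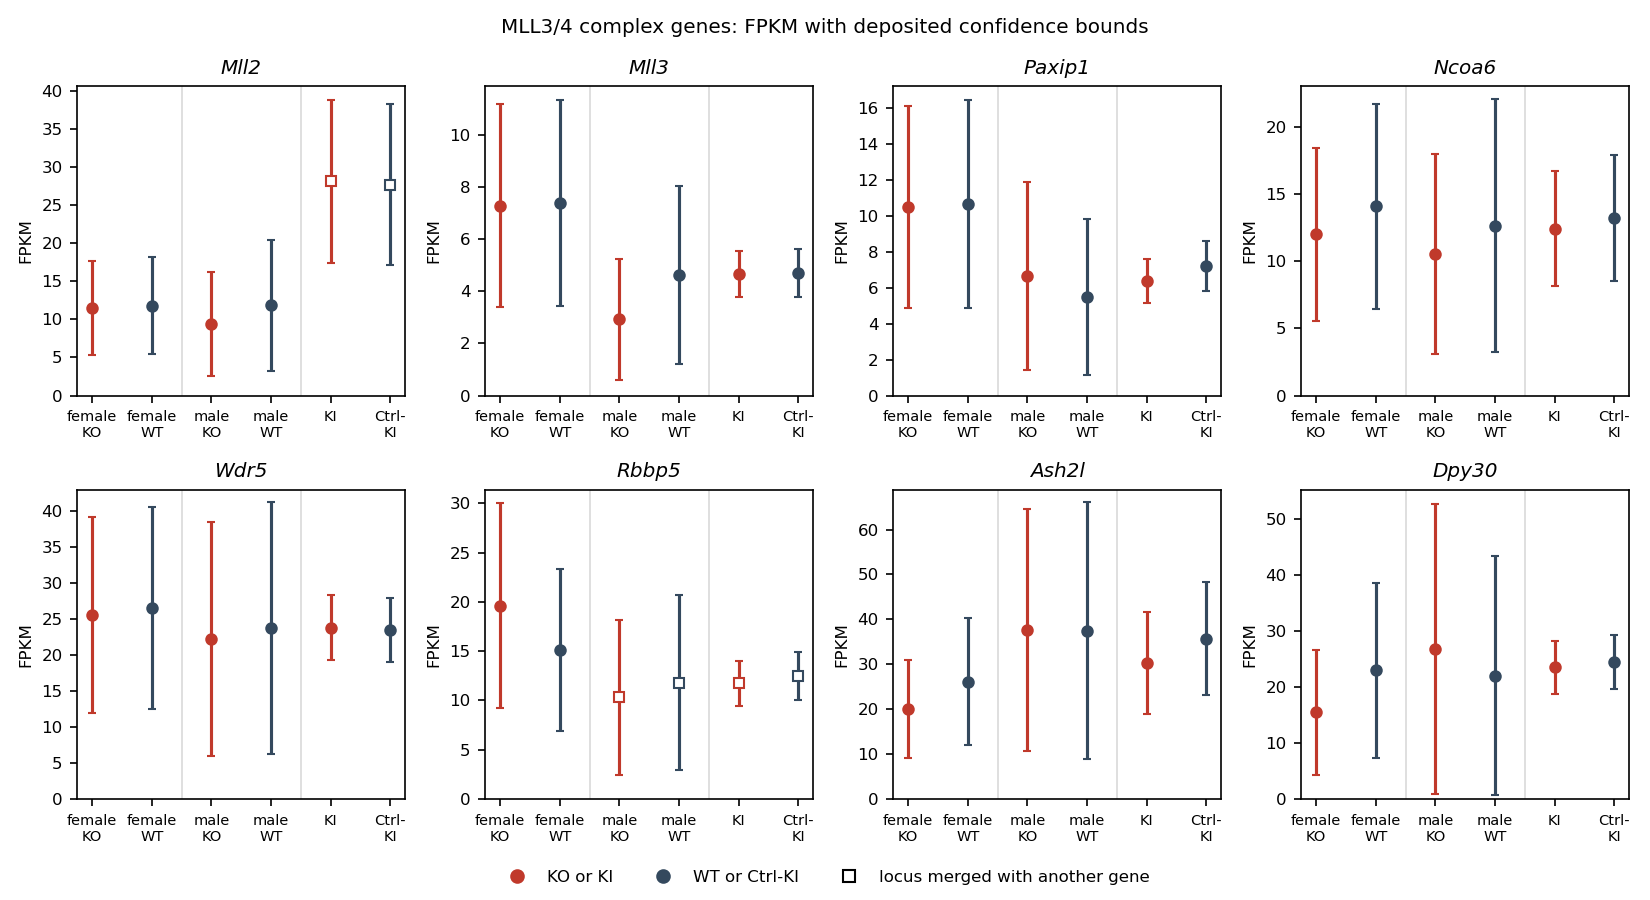
FPKM (vertical axes, from 0, a scale for each gene) of the 8 MLL3/4 complex genes in the 6 columns, with KO or KI in red left of its WT or Ctrl-KI control in dark blue. Bars are the deposited confidence bounds and open squares are loci merged with another gene. The bounds overlap within every pair, as for Mll3 at 2.93 FPKM in male KO and 4.63 in male WT cells.

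Of the enzymes that write the mark, both lay near WT in female KO cells and lower in male KO cells, and only Mll3 had a KI value of its own. Mll2 (mm9 chromosome 15, 98662100 to 98701636, protein-coding) was 11.5 FPKM in female KO cells, against 11.8 in female WT cells (bounds 5.27 to 17.6 and 5.42 to 18.2). In males Mll2 was 9.39 FPKM in KO cells, against 11.9 in WT cells (bounds 2.59 to 16.2 and 3.27 to 20.4). The ratios were -0.04 in females and -0.31 in males, both inside the deposited error. In the KI table the Mll2 locus is merged with its neighbour Prkag1, a subunit of the energy sensor AMPK, and the joint value was 28.2 FPKM in KI cells, against 27.7 in Ctrl-KI cells (ratio 0.02). That value cannot be read as Mll2 alone. Where it is listed by itself, Prkag1 had 19.9 FPKM in female KO and 26.8 in female WT cells, and 29.3 FPKM in male KO and 18.4 in male WT cells.

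Mll3 (mm9 chromosome 5, 24777612 to 25004601) was 7.30 FPKM in female KO cells, against 7.40 in female WT cells (bounds 3.40 to 11.2 and 3.45 to 11.4). It was 2.93 FPKM in male KO cells, against 4.63 in male WT cells (bounds 0.610 to 5.25 and 1.21 to 8.04). Its male ratio of -0.52 was the lowest of the 8 genes in males, and still 36.4% of all male genes had a larger absolute ratio. In KI cells Mll3 was 4.68 FPKM, against 4.71 in Ctrl-KI cells (bounds 3.79 to 5.56 and 3.80 to 5.61). This ratio, -0.01, is the most narrowly bounded of the MLL3 values, since the deposited bounds leave a range of -0.47 to 0.45. Mll2 exceeded Mll3 in each KO table, 1.57-fold in female KO and 1.59-fold in female WT cells, and 3.21-fold in male KO and 2.56-fold in male WT cells.

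The subunits particular to the MLL3/4 form also stayed close to their controls. Ncoa6 (mm9 chromosome 2, 155216392 to 155266519), a coactivator of nuclear receptors, was 12.02 FPKM in female KO cells, against 14.1 in female WT cells (bounds 5.58 to 18.5 and 6.45 to 21.7). It was 10.5 FPKM in male KO cells, against 12.7 in male WT cells (bounds 3.07 to 17.97 and 3.21 to 22.1). In KI cells it was 12.4 FPKM, against 13.2 in Ctrl-KI cells (bounds 8.13 to 16.7 and 8.56 to 17.9). On the deposited scale Ncoa6 thus lay slightly below its control each time, with ratios of -0.21, -0.25 and -0.09. The bounds overlapped in all 3 comparisons. In the KI table its locus overlaps that of Trp53inp2, and the tables give no strand, so reads of the 2 genes may not be separated there.

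Paxip1 (mm9 chromosome 5, 28067205 to 28117879) encodes PTIP, a BRCT-domain protein that brings the complex to chromatin. It was 10.5 FPKM in female KO cells, against 10.6 in female WT cells (bounds 4.86 to 16.1 and 4.84 to 16.4). It was 6.65 FPKM in male KO cells, against 5.48 in male WT cells (bounds 1.42 to 11.9 and 1.16 to 9.81). In KI cells it was 6.37 FPKM, against 7.22 in Ctrl-KI cells (bounds 5.16 to 7.58 and 5.84 to 8.61). The ratios, -0.02, 0.24 and -0.16, had no common sign. PA1, the small partner of PTIP, is listed under its older symbol 2900092E17Rik. It was 28.8 FPKM in female KO cells, against 23.4 in female WT cells, a ratio of 0.29, and in the other tables its locus is merged with neighbours (ratios -0.05 in males and 0.05 in the KI table).

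Among the 4 core subunits, Wdr5 varied least. Wdr5 (mm9 chromosome 2, 27370667 to 27392055), the WD40 protein that binds the methyltransferase and the histone tail, was 25.6 FPKM in female KO cells, against 26.5 in female WT cells (bounds 12.01 to 39.2 and 12.5 to 40.6). It was 22.2 FPKM in male KO cells, against 23.8 in male WT cells (bounds 5.97 to 38.5 and 6.32 to 41.2). In KI cells it was 23.8 FPKM, against 23.5 in Ctrl-KI cells (bounds 19.3 to 28.3 and 19.0 to 27.9). Its ratios were -0.05, -0.09 and 0.02, and its 6 values lay between 22.2 and 26.5 FPKM although the tables were estimated separately. Its single-exon paralogue Wdr5b, which could share reads with it, had at most 3.06 FPKM in any column.

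Rbbp5 (mm9 chromosome 1, 134373944 to 134402242), the core subunit that links the others to the catalytic SET domain, was 19.6 FPKM in female KO cells, against 15.1 in female WT cells (bounds 9.22 to 30.0 and 6.86 to 23.4). In male and KI cells the locus also takes in Tmem81, which was 1.54 FPKM in female KO and 1.76 in female WT cells. The merged locus had 10.3 FPKM in male KO cells, against 11.8 in male WT cells (bounds 2.40 to 18.2 and 2.93 to 20.6). It had 11.8 FPKM in KI cells, against 12.5 in Ctrl-KI cells (bounds 9.47 to 14.0 and 10.1 to 14.9). The female ratio of 0.36 was the highest of the 8 genes in females, and the male and KI ratios of -0.18 and -0.08 had the other sign.

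Ash2l (mm9 chromosome 8, 26927342 to 26958142), whose SPRY domain contacts RBBP5, was 19.99 FPKM in female KO cells, against 26.2 in female WT cells (bounds 9.07 to 30.9 and 12.1 to 40.2). It was 37.6 FPKM in male KO cells, against 37.5 in male WT cells (bounds 10.6 to 64.5 and 8.92 to 66.1). In KI cells it was 30.3 FPKM, against 35.7 in Ctrl-KI cells (bounds 18.9 to 41.7 and 23.1 to 48.3). The ratios were -0.37, 0.00 and -0.23. The Ash2l locus differs between the tables. It spans 30801 bases for females, 39640 for males, where it overlaps Star, and 269229 for KI, where it overlaps 6 other loci, so its higher levels there cannot be assigned to Ash2l alone.

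Dpy30 (mm9 chromosome 17, 74698814 to 74723284), the small subunit that docks on ASH2L, was 15.5 FPKM in female KO cells, against 22.98 in female WT cells (bounds 4.37 to 26.6 and 7.32 to 38.6). It was 26.7 FPKM in male KO cells, against 22.03 in male WT cells (bounds 0.825 to 52.7 and 0.671 to 43.4). In KI cells it was 23.5 FPKM, against 24.4 in Ctrl-KI cells (bounds 18.8 to 28.3 and 19.6 to 29.3). Dpy30 had the lowest of the 8 ratios in females, -0.54, and the highest in males, 0.27, and relative to its FPKM it had the widest male bounds of the 8. Its KI ratio was -0.05.

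Counted together, the 8 genes stood out in none of the comparisons. In female KO cells 0 of 8 were at least 2-fold higher or lower, where 8.89% of all 12344 genes were, and the median ratio was -0.04 beside -0.08 for all genes. In male KO cells 0 of 8 were past 2-fold, where 16.4% of all genes were, and the median was -0.14 beside -0.02. In KI cells 0 of 8 were past 2-fold, where 4.75% were, and the median was -0.07 beside -0.04. With 8 genes, shares of this size correspond to about 1 gene or fewer, so the counts are near the background. At 1.5-fold, which 28%, 32.3% and 10.7% of all genes passed in the female, male and KI tables, the count was also 0 of 8 each time. On plain FPKM, without the added 1, Mll3 was past that size in males, at 0.633 times its WT level. Deposited intervals were apart for 0 of 8 genes in each table, where they were apart for 0.899% of all genes in the female, 0.865% in the male and 12% in the KI table.

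On the deposited scale 7 of 8 genes lay below WT in females, 5 of 8 in males and 6 of 8 below Ctrl-KI, and these counts depend on scaling. The median ratio of all genes was also below 0 in each table (-0.08, -0.02 and -0.04), so most genes lay below their control too. With TPM over loci with a symbol the counts became 3, 4 and 2 of 8, beside medians of all genes of 0.10, 0.15 and 0.06. With TPM over all loci they were 3, 8 and 8 of 8, beside medians of 0.10, -0.70 and -0.77. The bounds limit what could be seen. In both KO tables they left room for a 2-fold difference in either direction for 8 of 8 genes, and in the KI table for 3 of 8 in at least 1 direction.

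**Figure D2:**
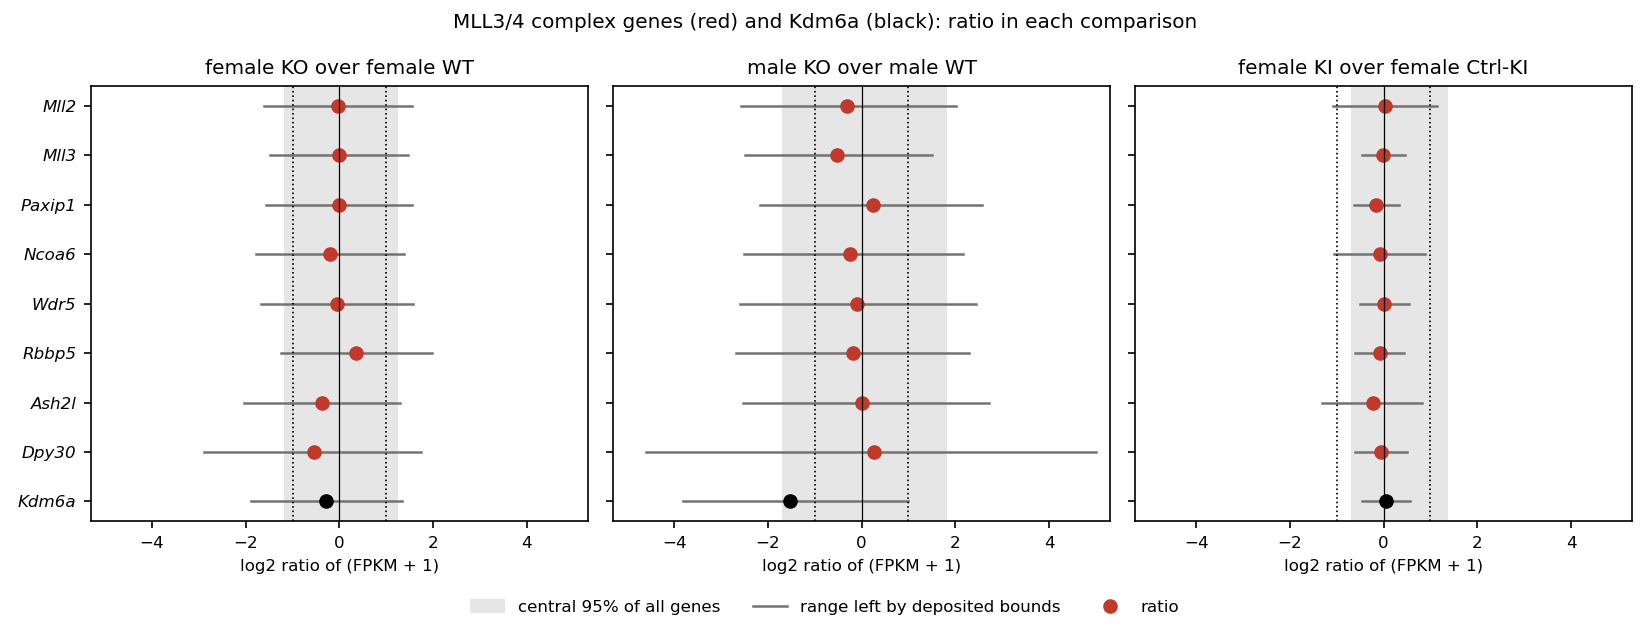
Log2 ratio of (FPKM + 1), KO or KI over its control (horizontal axis), for the 8 complex genes and Kdm6a in the 3 comparisons. Grey lines run from the lowest to the highest ratio the deposited bounds allow, the band holds the central 95% of all genes and dotted lines mark 2-fold. The 8 genes lie between -0.54 and 0.36 in females, -0.52 and 0.27 in males and -0.23 and 0.02 in the KI comparison, and Kdm6a is at -1.53 in males.

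Taking each sex as 1 measurement of the knockout, none of the 8 genes passed the test. With limma on the female and male ratios over 11079 genes, 0 of 8 rose or fell at a Benjamini-Hochberg adjusted p under 0.05, and the adjusted p of the 8 ranged from 0.642 for Mll3 to 0.903 for Wdr5. Only 1 gene of all 11079 was called (0.00903%), Gt(ROSA)26Sor, which rose in KO cells of both sexes (mean 4.15 ± 0.23, adjusted p = 0.0440), so the adjusted threshold separates little here. At an unadjusted p under 0.05 the count was 0 of 8, where 19.3% of all genes passed. The mean log2 ratio was -0.27 ± 0.26 for Mll3 (moderated SE of limma, n = 2 ratios), with a 95% interval of -0.92 to 0.39. It was -0.17 ± 0.24 for Mll2, with an interval of -0.77 to 0.43, and -0.23 ± 0.23 for Ncoa6, with an interval of -0.81 to 0.35. Wdr5 was at -0.07 ± 0.23, with an interval of -0.63 to 0.49. For 8 of 8 genes this interval lay inside 2-fold in both directions, the outermost bounds being -0.92 and 0.73. It rests on 2 ratios per gene and leaves out the deposited error of each FPKM. Those deposited bounds left room for 2-fold in either direction for 8 of 8 genes in both KO tables. A 2-fold difference is therefore not excluded. The only replicate error is the difference between the sexes, with 1 residual degree of freedom, and limma shrinks it towards the spread of genes of similar level.

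On the deposited scale the sexes differed in sign for 4 of the 8 genes. There Mll2, Mll3, Ncoa6 and Wdr5 were below WT in both, and Paxip1, Rbbp5, Ash2l and Dpy30 had opposite signs. With ratios centred on the median of all genes, 6 of 8 had opposite signs, Mll2, Mll3 and Wdr5 joining them and Paxip1 leaving, and with TPM 5 of 8 did. The share of all genes with opposite signs was not counted, so these counts are not a result about the 8 genes. Dpy30 had the widest gap, 0.81 on the log2 scale, and Ncoa6 the narrowest, 0.03. A difference between the sexes was not tested, since each has 1 library per group. For comparison, Kdm6a had a mean of -0.91 ± 0.35 (unadjusted p = 0.0446, adjusted p = 0.246 by limma), lower in both sexes.

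**Figure D3:**
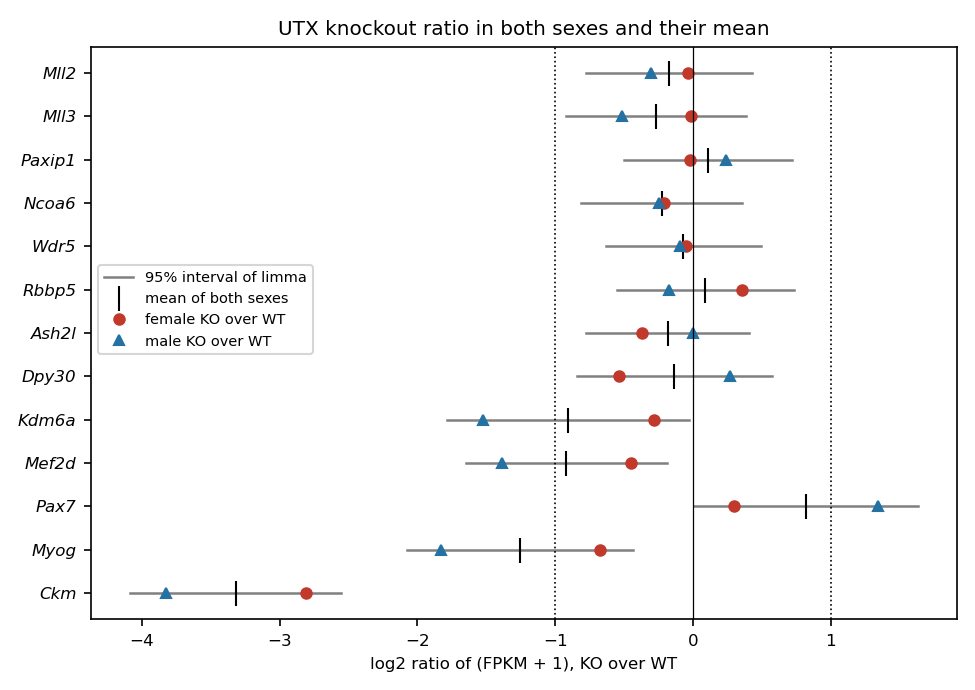
Log2 ratio of (FPKM + 1), KO over WT, in females (circles) and males (triangles) with their mean (bars) and its 95% limma interval (lines) for the 8 complex genes, Kdm6a and 4 muscle genes. The intervals of the 8 genes span 0, from -0.92 at the lowest to 0.73 at the highest, whereas Ckm is at -2.81 in females and -3.83 in males.

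Other genes that write the same mark also held none past 2-fold, over a wider range than the 8 in males and in the KI table. Of 11 further H3K4 methyltransferase complex genes 10 were measured, and Setd1b was not in the tables. Past 2-fold were 0 of 10 in each of the 3 comparisons, with medians of 0.12 in females, -0.05 in males and 0.03 in the KI table. The loci of Wbp7, Setd1a, Men1 and PA1 are merged with neighbours in males and in the KI table, and that of Mll1 in the KI table. The male and KI medians therefore rest partly on joint values. Mll1, the trithorax-type paralogue, was the highest in females, at 15.3 FPKM in KO and 10.9 in WT cells, a ratio of 0.45. Wbp7, the paralogue whose name is confused with Mll2, was 25.3 FPKM in female KO and 23.9 in female WT cells (ratio 0.08). Hcfc1, the host cell factor that binds MLL and SET1 complexes, was 19.7 FPKM in female KO and 25.9 in female WT cells (ratio -0.38), the lowest of the list there. It was also the lowest in the KI table, at 33.9 FPKM in KI and 47.6 in Ctrl-KI cells (ratio -0.48). Its relative Hcfc2 was the lowest in males, at 10.4 FPKM in KO and 20.2 in WT cells (ratio -0.90). Setd1a, the catalytic subunit of a SET1 complex, is merged with 3 other genes in the male table, where that locus was the highest, 33.3 FPKM in KO and 20.6 in WT cells (ratio 0.67), and in the KI table (ratio 0.19). In the limma fit 0 of 10 rose or fell.

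Enzymes that remove H3K4 methylation, and enhancer coactivators, likewise held 0 of 6 genes past 2-fold in each comparison. Among the demethylases Kdm5b was the highest in females, at 44.9 FPKM in KO and 28.7 in WT cells (ratio 0.63), and in the KI table, at 25.5 FPKM in KI and 21.0 in Ctrl-KI cells (ratio 0.27). Kdm5a was the lowest in males, at 13.4 FPKM in KO and 16.5 in WT cells (ratio -0.28). The list's highest gene in males was Kdm1b at 0.01, and the lowest elsewhere were Kdm2b in females at -0.14 and Kdm1b in the KI table at -0.15. Of the coactivators, the acetyltransferase gene Crebbp was the highest in females (19.9 FPKM in KO and 14.2 in WT cells, ratio 0.45) and the lowest in males (8.20 FPKM in KO and 9.87 in WT cells, ratio -0.24). Further extremes were Med12 in females at -0.21, and Ep300 at 0.05 and Med1 at -0.17 in the KI table. In the limma fit 0 of 6 demethylases and 0 of 6 coactivators rose or fell.

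Larger ratios appeared among the factors known to bind these complexes in muscle cells and among differentiation genes. In males 2 of 6 binding factors were at least 2-fold higher and 1 lower, where 16.4% of all genes were past 2-fold. In the female and KI comparisons 0 of 6 were, where 8.89% and 4.75% of all genes were. Deposited intervals were apart for 0 of 6 binding factors in each KO table and for 1 of 6 in the KI table. Pax7, which recruits WDR5 and ASH2L, was 16.3 FPKM in male KO and 5.82 in male WT cells (ratio 1.34), the related Pax3 was 2.86 FPKM in male KO and 0.571 in male WT cells (1.30), and Mef2d was 45.7 FPKM in male KO and 121 in male WT cells (-1.39). In females Pax3 was the highest at 0.62 and Myod1 the lowest at -0.87, and in the KI table Carm1 at 0.05 and Myod1 at -0.55. Adjusted over all genes, 0 of 6 passed in the limma fit. An unadjusted limma p under 0.05 was reached by 4 of 6, and by 19.3% of all genes. Both directions were among the 4 (mean 0.82 for Pax7 and -0.92 for Mef2d). Of 6 muscle differentiation genes 4 were at least 2-fold lower in female KO, 6 in male KO and 0 in KI cells. Past 2-fold in either direction were 8.89%, 16.4% and 4.75% of all genes, in that order. The medians of the 6 were -1.76, -2.62 and -0.18, and deposited intervals were apart for 2, 2 and 0 of them. Ckm, the muscle creatine kinase, was 20.2 FPKM in female KO and 147 in female WT cells, and 6.82 FPKM in male KO and 110.0 in male WT cells. It was the lowest of the list in both, and Myog the highest, at -0.68 in females and -1.83 in males. In the KI table Ckm was the highest at 0.08 and Tnnc2 the lowest at -0.40. These 6 genes had adjusted p values from 0.0960 to 0.136 in the limma fit, so 0 of 6 passed. An unadjusted limma p under 0.05 was reached by 6 of 6, beside 0 of the 8 complex genes and 19.3% of all genes.

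**Figure D4:**
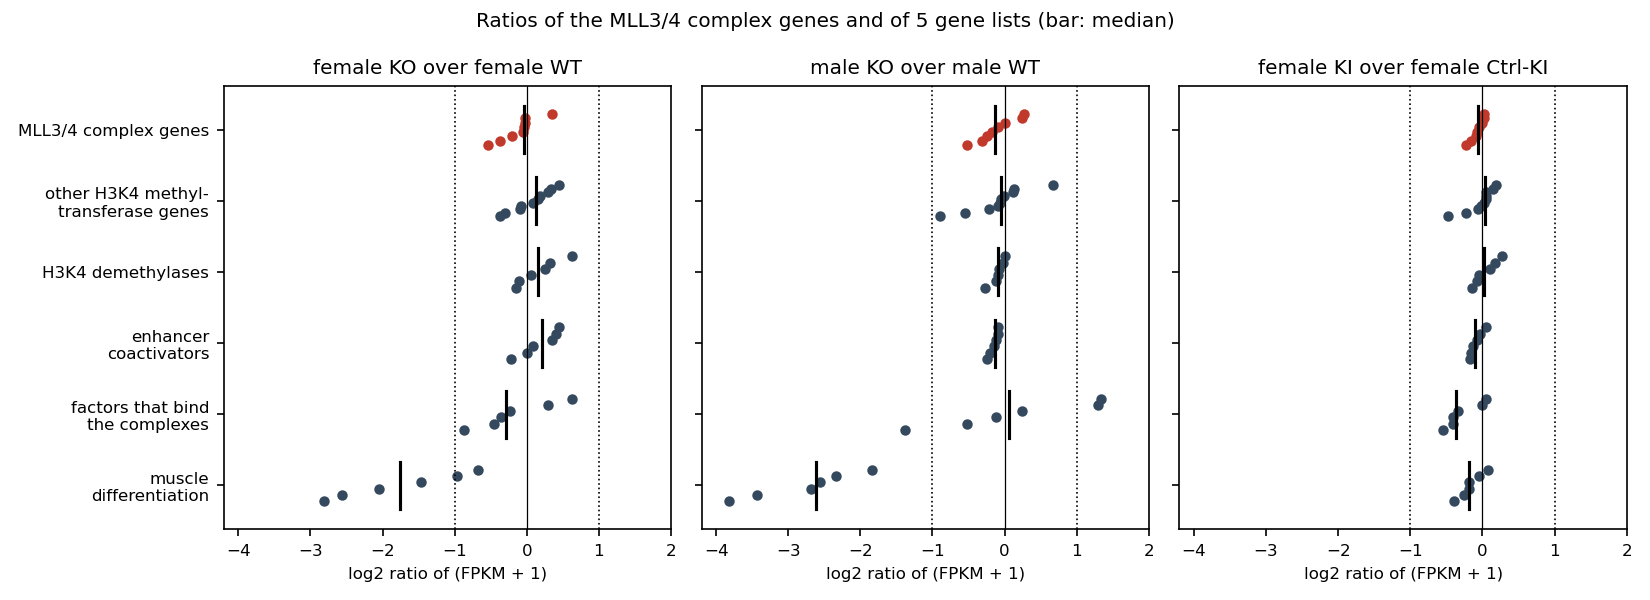
Log2 ratio of (FPKM + 1), KO or KI over its control (horizontal axes), for each kept gene of the MLL3/4 complex list (red) and of 5 further lists (blue), with the median as a bar and 2-fold as dotted lines. The complex genes have medians of -0.04, -0.14 and -0.07 in the female, male and KI panels, and the muscle differentiation genes -1.76, -2.62 and -0.18.

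Markers of other cell types differed between the columns beside these values. Summed over the list, 5 myoblast markers were at 1282 FPKM in female KO and 2286 in female WT cells, 2522 in male KO and 6029 in male WT cells, and 4666 in KI and 5708 in Ctrl-KI cells, so transcripts of the labelled cell type were present throughout. The largest part of each sum was Myog, which is also in the muscle differentiation list. It was 817 FPKM in female KO and 1305 in female WT cells, and 961 in male KO and 3424 in male WT cells. In the KI table it was 2827 FPKM in KI and 3201 in Ctrl-KI cells. The sums therefore do not separate myoblast content from differentiation. The 8 fibro-adipogenic markers, of connective tissue cells of muscle, summed to 583 FPKM in female KO and 269 in female WT cells, with 7 of 8 higher in KO. Their sums were 136 FPKM in male KO and 44.6 in male WT cells (7 of 8 higher). In the KI table they were 362 FPKM in KI and 29.6 in Ctrl-KI cells (8 of 8 higher). Gsn (69.7 FPKM) and Col3a1 (59.1 FPKM) made up most of the male KO sum. Fibro-adipogenic markers under 0.5 FPKM numbered 2 in female KO, female WT and male KO cells. They numbered 5 in male WT, 0 in KI and 5 in Ctrl-KI cells. The 8 endothelial markers summed to 31.2 FPKM in female KO and 18.1 in female WT cells. In males they summed to 70.2 FPKM in KO and 1.35 in WT cells. In the KI table they summed to 9.35 FPKM in KI and 2.28 in Ctrl-KI cells. All 8 were higher in KO or KI each time, but many were very low. Of the 8, 7 were under 0.5 FPKM in male WT, KI and Ctrl-KI cells. In male KO cells 4 were, in female KO cells 1 and in female WT cells 2. Emcn alone held 40.6 FPKM of the male KO sum, and Eng 7.64 FPKM of the KI sum. Immune markers outside merged loci summed to 15.4 FPKM in female KO and 8.54 in female WT cells, 8.35 in male KO and 1.40 in male WT cells, and 32.5 in KI and 0.983 in Ctrl-KI cells, with 5 of 6, 4 of 5 and 4 of 5 higher in KO or KI. Itgam was lower each time. Cd68 held 11.5 FPKM of the female KO and 7.25 of the female WT sum, and its merged locus is left out of the other sums. Lyz2 held 7.94 FPKM of the male KO and 31.0 of the KI sum. Under 0.5 FPKM were 3 of 6 in female KO and 5 of 6 in female WT cells. Of 5 elsewhere, 4 were in male KO, 3 in male WT, 3 in KI and 4 in Ctrl-KI cells. Listed at 0 were Lum in male KO, Lum, Tie1 and Emr1 in male WT, Ptprc and Emr1 in female WT, and Lum, Emcn and Tie1 in Ctrl-KI cells. The part of these cell types in the ratios of the 8 genes was not tested. In bulk RNA, fewer cells of a type and less RNA per cell cannot be told apart.

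The genes nearest in ratio to both methyltransferase genes were listed for description. Likeness was taken as the distance between the 3 log2 ratios of a gene and those of Mll2 or Mll3, over 6235 genes with a single symbol and at least 5 FPKM in all 6 columns. Nearest to Mll2 were Zmym5 (distance 0.02), Mudeng (0.03) and Mapkapk5 (0.04), and 31 genes lay within 0.1. Nearest to Mll3 were Lrig2 (0.04), Rnf103 (0.05) and Ubr2 (0.05), and 11 genes lay within 0.1. The KI value behind Mll2 is that of the merged locus. With 3 values per gene this is a description only.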

How the data were processed

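The authors used build mm9, TopHat2 2.0.12 with Bowtie2 2.2.4 among the tools, and Cufflinks 2.2.1 with Cuffdiff, per the submitters' processing notes, which also list HTSeq 0.6.1, edgeR and bedtools 2.16.2 without roles. Which annotation defined the loci is not stated in the sources used here. Each of 3 tables holds FPKM, confidence bounds in FPKM (level not stated) and a status for 2 columns, deposited by the authors, per the file headers. Libraries were grouped by title. Loci without a symbol or with a status other than OK in both columns were left out. Starts are printed 1 higher than deposited: of 234 microRNA loci within 5 bases of their RefSeq length (GRCm38.p6, used for names only), 228 matched with starts counted from 0.

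Ratios within each table used a pseudocount of 1 FPKM. The female and male KO ratios were tested against 0 by limma 3.58.1 in R 4.3.3, with the prior variance following mean level; the procedure was tested on simulated data. A merged locus stood for each of its symbols. Other steps used pandas 2.3.3 and numpy 2.4.6 under python 3.11.15. The KI columns are pooled, so the planned KI test was not run. The complex genes and lists were chosen with earlier results of these data known. Named are the 8 genes, UTX family genes, PA1, the highest and lowest gene of each of the 5 further gene lists per comparison (1 is not reported here; marker lists are given as sums) and the 3 genes nearest Mll2 and Mll3; others (such as Wbp7, Wdr5b, Gt(ROSA)26Sor and merged neighbours) were chosen after their values were seen. As alternatives, the filter was dropped or raised to 5 FPKM, the pseudocount set to 0.1 or 5 FPKM, ratios centred on the median or taken from TPM, every status kept, other call rules used, and limma run without the trend or with the KI ratio added.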

Additional observations from a re-analysis of the deposited data

Results flagged for a closer look

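Of the 8 complex genes, 4 had opposite signs in the sexes on the deposited scale, with 1 library per group and no test of the difference. Which genes these are depends on the scaling: centred on the median of all genes, 6 had opposite signs (Mll2, Mll3, Wdr5, Rbbp5, Ash2l and Dpy30). With TPM, 5 did (Mll2, Mll3, Paxip1, Wdr5 and Rbbp5 over all loci, and Mll2, Mll3, Rbbp5, Ash2l and Dpy30 over loci with a symbol). On the log2 scale, KO over WT, Paxip1 was at -0.0206 in females and 0.24 in males. Rbbp5 was at 0.36 in females and -0.18 in males, where its locus is merged with Tmem81. Ash2l was at -0.37 in females and 0.00278 in males, where its locus is longer. Dpy30 was at -0.54 in females and 0.27 in males, and its male bounds are the widest of the 8 relative to its FPKM. In each case the deposited bounds of KO and WT overlapped in both sexes. How many of all genes had opposite signs was not counted, so the counts given here have no background beside them.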

How the results depend on the processing

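Of 214 ratios of the 8 genes recomputed in single tables, 206 moved by less than the deposited error. In the KO tables that error was wide, from 0.96 for Mll3 in females to 1.90 for Dpy30 in males, so few shifts could exceed it. Wdr5 in males, for example, went from -0.09 to -0.81 with TPM over all loci and is among the 206. Some alternatives, such as keeping every status, left the ratios unchanged. The 8 ratios that moved further were those of KI with TPM over all loci. They lay between -1.03 and -0.65 and put 1 gene, Ash2l, past 2-fold, while the median of all genes moved to -0.77. Relative to that median the 8 genes lay between -0.26 and 0.12. TPM moved the median ratio of all genes from -0.08 to 0.10 in females and from -0.02 to -0.70 (all loci) or 0.15 (loci with a symbol) in males, and relative to it 0 of 8 genes were past 2-fold in any table. In every other alternative run within a comparison none was called, with 8 genes tested except under the filter of 5 FPKM, which left out Mll3 in the male and KI tables. The order of levels cannot change with TPM, which multiplies a column by 1 factor.

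Genes called at 2-fold numbered 1097 in females, 1872 in males and 527 in the KI table. With a pseudocount of 5 FPKM they were 442, 918 and 224, at 1.5-fold 3455, 3699 and 1182, and with intervals apart 111, 99 and 1330. Females had 1747 with a pseudocount of 0.1 FPKM, and the KI table had 344 with a filter of 5 FPKM and 1879 with TPM over all loci. The balance of calls moved with scaling. In females 554 genes were higher and 543 lower, against 681 and 396 after median centring and 1197 and 427 with TPM. In males the numbers were 1132 higher and 740 lower, against 253 and 2521 with TPM over all loci and 1799 and 715 over loci with a symbol. In the KI table they were 428 and 99, against 196 and 1683 with TPM over all loci. The limma fit called 1 gene; it called 0 with a pseudocount of 0.1 FPKM, no filter, median-centred ratios, no trend, or the KI ratio added, 22 with a filter of 5 FPKM and 107 with TPM over all loci. None of the complex genes was called in any of these fits, the one with a filter of 5 FPKM holding 7 of them, without Mll3, and their lowest adjusted p ranged from 0.470 to 0.915.

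Mean KO ratios of both sexes changed sign with TPM over all loci for Paxip1 (-0.11) and Rbbp5 (-0.14), and with TPM over loci with a symbol for Wdr5 (0.10) and Dpy30 (0.0286). With 1 sex left out there is no test, and the single ratios span -0.0206 to 0.24 for Paxip1, -0.18 to 0.36 for Rbbp5, -0.37 to 0.0028 for Ash2l and -0.54 to 0.27 for Dpy30. The cause was not tested. No paired analysis was possible because the KI table pools the numbered replicates in 1 column per group, which also prevented leaving out a KI replicate. Read counts are not given, so the deposited bounds are the only error within a table.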

Other observations

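Of the 10 further H3K4 methyltransferase complex genes measured, 3 lay below the control in all 3 comparisons on the deposited scale. Their values were seen before they were picked. Hcfc2 had log2 ratios of -0.30 in female KO, -0.90 in male KO and -0.22 in KI cells, with a mean over the KO pairs of -0.60 (n = 2 ratios, limma adjusted p = 0.296). Hcfc1 had -0.38 in female KO, -0.55 in male KO and -0.48 in KI cells, with a mean of -0.46 (limma adjusted p = 0.343). Wdr82 had -0.07, -0.01 and -0.02. On the same scale 2 of the 8 MLL3/4 complex genes lay below in all 3, Mll3 and Ncoa6. With TPM over loci with a symbol neither did, Mll3 being at 0.15 in females and Ncoa6 at 0.007 in the KI table. Below in all 3 on the deposited scale were also 3 of 6 binding factors, 5 of 6 muscle differentiation genes, 1 of 6 coactivators and 0 of 6 demethylases. The share of all genes below in all 3 was not counted, so these counts have no background beside them. The median of all genes was itself below 0 in each comparison, at -0.08, -0.02 and -0.04. Wdr5b, the paralogue of Wdr5, was 0.560 FPKM in female KO and 1.42 in female WT cells, 1.47 in male KO and 2.75 in male WT cells, and 2.38 in KI and 3.06 in Ctrl-KI cells. These are low values, given here without their bounds, and the differences were not tested. Wdr5 itself was at 22.2 to 26.5 FPKM, with wide bounds in the KO tables, such as 6.32 to 41.2 in male WT cells.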
